A study of Mus musculus with 2 samples.

Results

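The genes described are Gata2, Gata3, Gata4, Gata5, Gata6, Zfpm1 and Zfpm2, which are 7 of the 20807 autosomal protein-coding genes annotated in GENCODE M21 on GRCm38. They were chosen by name as the autosomal genes for GATA factors and FOG (friend of GATA) cofactors, with earlier results of these data known. Accessible DNA was mapped in wildtype FVB mouse hearts at E11.5 by ATAC-seq, in which a transposase places sequencing adapters where chromatin is open. The 2 samples were replicates of this single group, each a pool of 2 whole hearts, so no conditions were compared. A shared region is the part of a replicate 1 peak that a replicate 2 peak covered by at least 1 bp, and a start was called open where a shared region lay within 1 kb of it. The locus of a gene is its body with 100 kb on each side. Whole hearts mix cell types, so accessibility in few cells and weak accessibility in many cells cannot be told apart.

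GATA factors are zinc finger proteins that bind the sequence GATA. GATA4, GATA5 and GATA6 are the members known from heart and endoderm, where they act with NKX2-5, TBX5 and other cardiac factors in muscle, endocardium and epicardium. GATA2 and GATA3 are known from blood stem cells, endothelium, lymphocytes, neurons and trophoblast, and GATA2 is also found in endocardium. FOG1, the product of Zfpm1, and FOG2, the product of Zfpm2, do not bind DNA on their own but attach to the amino-terminal zinc finger of GATA factors and recruit the NuRD repressor complex. FOG1 is known from red blood cell and platelet precursors, and FOG2 from heart and coronary vessel development.

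Of the 209 shared regions in the 7 loci, a single one, in an intron of Gata2, held the E-box and GATA composite. The search on both strands took the E-box letters CATCTG, followed by 8 or 9 free bases and then the letters AGATAA of a GATA site. Composites of this kind are bound by TAL1 and GATA proteins together in blood and endothelial cells. The match lay at chr6:88203185-88203204 with 8 free bases, and its first base was 78 bp from the replicate 1 summit. The region was chr6:88202913-88203754, 9.22 kb downstream of the 5′-most Gata2 start, where replicate 1 had a fold enrichment of 8.42 and replicate 2 one of 8.30, with summits 4 bp apart. Fold enrichment compares the reads piled up at a summit with the background of the whole genome, after adding 1 to each. Over all 96639 autosomal shared regions, 44 held the composite, which is 0.0455%. The second sequence shown is the Zfpm1 intron region with the most GATA matches of any member region, 5 within 100 bp of the summit, and was singled out after the matches were counted. A GATA match is GATA on either strand with A or T before it and A or G after it, with overlapping matches counted. At least 5 matches were found in 33 autosomal shared regions, or 0.0341%. Both are taken from the plus strand of GRCm38 with 100 bp on each side of the replicate 1 summit, with the composite in capitals in the first and the GATA matches in capitals in the second.
Gata2 intron (chr6:88203007-88203207): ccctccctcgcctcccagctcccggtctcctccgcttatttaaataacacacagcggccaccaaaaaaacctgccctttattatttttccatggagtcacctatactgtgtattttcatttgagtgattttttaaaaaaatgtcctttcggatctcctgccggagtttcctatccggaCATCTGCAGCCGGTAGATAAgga
Zfpm1 intron (chr8:122309404-122309604): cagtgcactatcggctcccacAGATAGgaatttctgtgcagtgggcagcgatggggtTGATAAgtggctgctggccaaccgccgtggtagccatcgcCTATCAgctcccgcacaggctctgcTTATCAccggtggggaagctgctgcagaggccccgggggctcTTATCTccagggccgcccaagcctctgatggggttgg

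The next 6 sequences are the summits of the distal regions with the highest mean fold enrichment in the loci of all members other than Gata6. Whether they regulate any gene was not tested. A distal region lay more than 1 kb from every annotated start of a protein-coding gene. Each holds 100 bp on each side of the replicate 1 summit, on the plus strand of GRCm38, with GATA matches in capitals. The Gata4 sequence held 2 matches, the Zfpm1 sequence held 1, and the sequences of Gata5, Gata2, Gata3 and Zfpm2 held 0.
Gata4 distal (chr14:63110350-63110550): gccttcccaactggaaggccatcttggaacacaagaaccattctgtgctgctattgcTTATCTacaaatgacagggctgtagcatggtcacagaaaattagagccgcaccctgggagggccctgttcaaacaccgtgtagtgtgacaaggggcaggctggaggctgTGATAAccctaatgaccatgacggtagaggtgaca
Gata5 distal (chr2:180385369-180385569): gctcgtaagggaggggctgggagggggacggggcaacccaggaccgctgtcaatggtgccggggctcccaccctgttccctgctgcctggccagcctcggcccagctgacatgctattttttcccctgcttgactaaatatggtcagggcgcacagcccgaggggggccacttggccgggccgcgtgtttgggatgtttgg
Gata2 distal (chr6:88132133-88132333): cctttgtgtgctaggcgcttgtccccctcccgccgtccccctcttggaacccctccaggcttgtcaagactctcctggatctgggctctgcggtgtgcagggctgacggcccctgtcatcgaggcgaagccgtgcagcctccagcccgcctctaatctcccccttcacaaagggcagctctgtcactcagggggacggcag
Gata3 distal (chr2:9970235-9970435): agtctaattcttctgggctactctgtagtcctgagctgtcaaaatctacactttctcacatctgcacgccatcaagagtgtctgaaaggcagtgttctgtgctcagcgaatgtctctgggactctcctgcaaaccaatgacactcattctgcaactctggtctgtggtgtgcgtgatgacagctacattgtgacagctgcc
Zfpm1 distal (chr8:122294334-122294534): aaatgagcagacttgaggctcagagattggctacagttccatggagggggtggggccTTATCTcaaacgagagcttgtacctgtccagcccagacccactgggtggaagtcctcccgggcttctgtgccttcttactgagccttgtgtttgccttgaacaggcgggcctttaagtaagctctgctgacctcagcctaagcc
Zfpm2 distal (chr15:41155430-41155630): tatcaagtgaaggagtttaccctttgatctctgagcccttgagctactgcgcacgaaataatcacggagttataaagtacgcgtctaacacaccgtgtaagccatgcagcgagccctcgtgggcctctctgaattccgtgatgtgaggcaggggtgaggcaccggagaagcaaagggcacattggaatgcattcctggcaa

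The sequences at the highest start regions of Gata4, Gata5 and Gata3 are given in the same way, to set a pair of cardiac genes beside Gata3. The windows follow the summit, and that of Gata3 lies upstream of the coding start at 9878600 and does not hold it, with the summit 1070 bp away. All 3 were rich in G and C, with 70.1% GC for Gata4, 71.1% for Gata5 and 66.2% for Gata3, and held 0 GATA matches. The window of Gata2 lies in a 5′ untranslated exon and is not printed.
Gata4 start region (chr14:63245330-63245530): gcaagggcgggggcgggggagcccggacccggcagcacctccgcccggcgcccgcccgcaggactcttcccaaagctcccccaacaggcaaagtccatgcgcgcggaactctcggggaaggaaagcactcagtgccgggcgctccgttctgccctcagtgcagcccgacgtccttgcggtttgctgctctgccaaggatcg
Gata5 start region (chr2:180334683-180334883): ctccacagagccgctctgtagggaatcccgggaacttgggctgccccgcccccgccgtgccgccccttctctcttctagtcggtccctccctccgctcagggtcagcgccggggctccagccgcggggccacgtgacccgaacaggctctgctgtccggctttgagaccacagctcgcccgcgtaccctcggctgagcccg
Gata3 start region (chr2:9879570-9879770): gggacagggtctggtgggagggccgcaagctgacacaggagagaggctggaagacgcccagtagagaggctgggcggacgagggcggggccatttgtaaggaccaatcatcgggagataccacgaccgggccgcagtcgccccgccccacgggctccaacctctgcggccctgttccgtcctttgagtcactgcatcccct

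Replicate 1 had 118027 peaks and replicate 2 had 114783, and the spacing of the fold enrichments gave backgrounds of 2.68 and 2.98 reads. Fold enrichments gave whole reads at 100% of summits within 0.01 reads, and exact Poisson 95% intervals on these reads cover counting error only. Over the 84988 autosomal shared regions with both summits inside, the ratio of replicate 1 to replicate 2 had an SD of 1.26-fold, and over those above a mean of 20 it had an SD of 1.11-fold. The label of heart was checked against marker genes. A start was open for 6 of 6 cardiomyocyte, 5 of 5 endothelial and endocardial, 4 of 4 epicardial and 5 of 5 erythroid markers. The share over all autosomal protein-coding genes was 68.8%. Mean fold enrichments ran from 4.33 for Pecam1 to 26.1 for Epb42. Their medians were 13.8 for cardiomyocyte, 14.1 for endothelial and endocardial, 13.0 for epicardial and 18.5 for erythroid markers. A start was open for 1 of 3 white blood cell markers, Spi1 at 4.72, 1 of 4 hepatocyte markers, Ttr at 4.33, 1 of 2 skeletal muscle markers, Myod1 at 5.21, and 0 of 4 neural markers. Pecam1 was thus no higher than Spi1, Ttr and Myod1. Hba-a1 and Hbb-bt have near-identical copies, so their values are uncertain.

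All 7 members had an open start, as had 68.8% of all autosomal protein-coding genes. Counted by position, 25 of the 30 annotated starts of the members were open, against 58.3% of all start positions. Neither count sets the members apart from the many other genes that are open. The highest value at a start ranged from a mean of 13.9 for Gata2 to 45.2 for Zfpm1, and the median over the 14309 open genes was 24.6, with quartiles of 14.3 and 33.7.

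**Figure D1:**
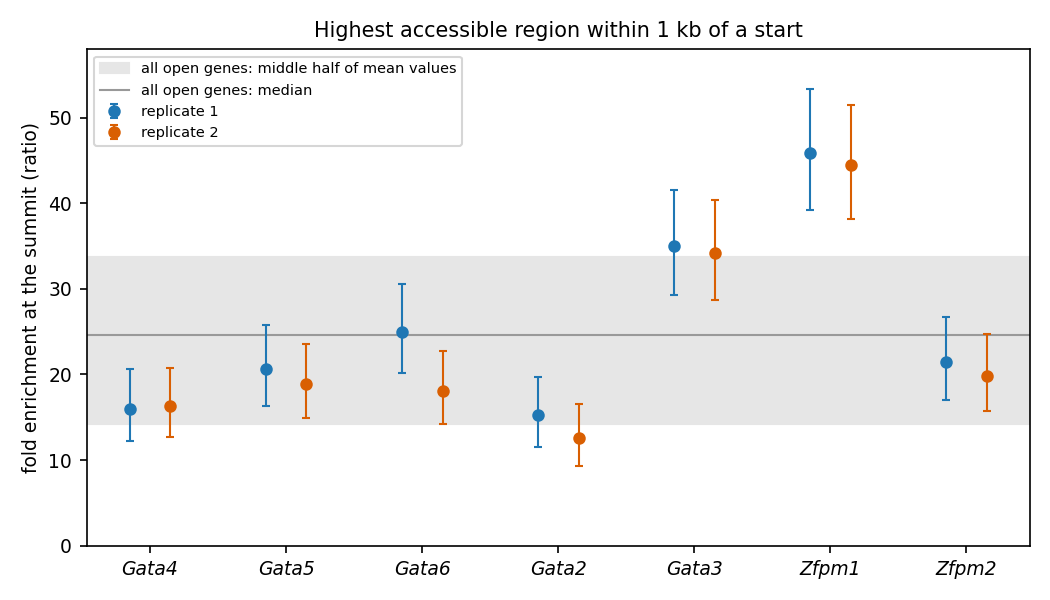
Fold enrichment (ratio) of the highest shared region within 1 kb of a start for each member, with points for replicate 1 and replicate 2, bars for exact Poisson 95% intervals, and a grey band and line for the quartiles (14.3 and 33.7) and median (24.6) of the 14309 open genes. Gata3 and Zfpm1 lie above the band in both replicates, and Gata2 is the lowest member on average.

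Gata4, which is needed for ventral folding of the embryo and growth of heart muscle, has 5 annotated starts on the minus strand of chr14:63198922-63271692, of which 4 were open. The highest region was chr14:63244990-63246556 at the inner starts 63245248 and 63245271. It reached 16.0 in replicate 1 (58 reads, interval 12.2 to 20.6) and 16.3 in replicate 2 (64 reads, interval 12.6 to 20.8). The outer starts at 63271124 and 63271692 shared a weaker region, with 8.42 and 6.79, and the start at 63213607 had none. The inner starts were thus above the outer starts in both replicates, by ranges that do not overlap. Where both peaks had to overlap by 50%, the inner region was lost and the highest Gata4 start value was 7.60.

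Gata5, known from endocardial and endoderm differentiation, has a single start on the minus strand of chr2:180325133-180334699. The region there was chr2:180333813-180335592, with 20.6 in replicate 1 (interval 16.3 to 25.8) and 18.9 in replicate 2 (interval 14.9 to 23.6). Its summits lay 84 and 34 bp upstream of the start. The noncoding gene Gata5os runs through the same region, and peaks carry no strand, so openness of the 2 genes cannot be told apart.

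Gata6, which acts alongside Gata4 in heart muscle and in the outflow tract, has 6 starts on the plus strand of chr18:11052064-11085635, all of them open. A region of 2271 bp, chr18:11051205-11053475, served 4 of these starts. Its summit also lay in the noncoding gene 1010001N08Rik, so openness of the 2 genes cannot be told apart. It reached 25.0 in replicate 1 (91 reads, interval 20.2 to 30.6) and 18.1 in replicate 2 (71 reads, interval 14.2 to 22.8), the widest gap between replicates at the highest start of any member. The 2 remaining starts, those of retained-intron transcripts at 11055038 and 11059047, had weak regions with means of 4.07 and 4.20.

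Gata2, a regulator of blood stem cells and endothelium, has 4 starts on the plus strand of chr6:88193891-88207032, of which 3 were open. The highest region was at the second start, 88198334, with 15.2 in replicate 1 (55 reads) and 12.6 in replicate 2 (49 reads, interval 9.36 to 16.5). The 5′-most start at 88193891 had 7.33 and 6.03, below the second start in both replicates. The start of a retained-intron transcript at 88200919 had none, and the one at 88204445 was counted open through the intron region with the composite, whose summits lay 1338 and 1334 bp upstream of it.

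Gata3, known from T lymphocytes, sympathetic neurons, ear and kidney duct, has 6 starts on the minus strand of chr2:9857078-9890034, of which 5 were open. The inner coding start at 9878600 held the strongest start region of the 5 GATA genes, chr2:9878228-9880095, with 35.0 in replicate 1 (128 reads, interval 29.3 to 41.6) and 34.2 in replicate 2 (135 reads, interval 28.7 to 40.4). The summits lay 1070 and 1065 bp upstream of that start, and the region itself spanned it. The 5′-most start at 9890034 had 11.1 and 10.8, less than the inner start in both replicates, and its region also lay within 1 kb of a start of the gene 9230102O04Rik. The start at 9887784 had none. Of the open genes, 77.2% had a lower mean at their start than Gata3.

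Zfpm1, the gene for FOG1, had the strongest start of the 7 members. Its 5′-most start at 122282141, on the plus strand of chr8:122282141-122337251, lay in a region of 5062 bp, chr8:122280712-122285773, which was longer than the start regions of 99.8% of open genes. It also lay within the annotated gene Gm20388, which runs past Zfpm1 on both sides. The region reached 45.9 in replicate 1 (168 reads, interval 39.3 to 53.4) and 44.5 in replicate 2 (176 reads, interval 38.2 to 51.5). Of the 4 starts of processed transcripts, those at 122333698 and 122333786 shared a region with 7.06 and 6.54, and those at 122307320 and 122334631 had none.

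Zfpm2, the gene for FOG2, has 3 starts on the plus strand of chr15:40655035-41104592, all of them open. The first 2, at 40655035 and 40655351, shared chr15:40654202-40656413, with 21.5 in replicate 1 (interval 17.0 to 26.7) and 19.9 in replicate 2 (interval 15.8 to 24.7). The coding start at 40664990 had a weaker region within 1 kb, with 6.79 and 6.28.

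Ordered by the mean of both replicates, the highest start values ran from Zfpm1 through Gata3, Gata6, Zfpm2, Gata5 and Gata4 to Gata2. Zfpm1 was 1.31-fold above Gata3 in replicate 1 and 1.30-fold in replicate 2. Gata3 was 1.40-fold and 1.89-fold above Gata6. Gata6, Zfpm2 and Gata5 followed each other with replicate ranges that overlap, and their order differed between replicates. Gata5 was 1.29-fold and 1.15-fold above Gata4, and Gata4 was 1.05-fold and 1.30-fold above Gata2. For each of the 6 neighbouring pairs in the order, the counting intervals overlapped in at least 1 replicate.

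At the starts, Gata4 to Gata6 did not form a group apart from Gata2 and Gata3. The means of the cardiac genes, 16.2 to 21.5, lay between that of Gata2 at 13.9 and that of Gata3 at 34.6. The mean log2 fold enrichment of Gata4 to Gata6 minus that of Gata2 and Gata3 was -0.20, with -0.19 in replicate 1 and -0.23 in replicate 2. Genes are not replicates of a group and 3 were set against 2, so no test was made. The start regions had 56.8% to 62.4% GC for Gata4 to Gata6, 53.1% for Gata3 and 65.4% for Gata2. Over open genes the median was 58.3%, with quartiles of 54.6% and 62.1%.

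Across the 7 loci, 257 peaks of replicate 1 and 230 peaks of replicate 2 gave the 209 shared regions. Gata5 had 41 regions, Zfpm1 40, Gata4 36, Gata3 29, Zfpm2 28, Gata2 19 and Gata6 16. This order depended on the flank and on the peaks used: with 50 kb on each side Gata5 had 18, fewer than Zfpm1 with 38, Gata4 with 22 and Gata3 and Zfpm2 with 21 each. Zfpm1 also exceeded Gata5 with flanks stopped at the nearest other protein-coding gene, by 37 to 27, with q of at most 1e-10, by 22 to 20, and with p of at most 0.00001, by 40 to 36. With 200 kb on each side Zfpm1 had 58 and Gata4 52, against 50 for Gata5. Zfpm1 and Gata5 were level at 38 when regions at other genes' starts were left out, and Gata4 and Gata5 at 42 with the peaks of replicate 2 alone. The count of Zfpm1 fell to 25 where both peaks had to overlap by 50%, below the 27 of Gata4 and level with Zfpm2, and to 28 where both summits had to lie inside. Per 100 kb of locus this was 19.6 for Gata5, 15.7 for Zfpm1, 13.2 for Gata4, 12.4 for Gata3, 8.91 for Gata2, 6.85 for Gata6 and 4.31 for Zfpm2. The median over all autosomal protein-coding genes was 5.63, and 99.4% of genes had a lower density than Gata5. Zfpm2, whose body of 449.6 kb made its locus the longest, was the only member below that median. Measured in base pairs covered per 100 kb, Zfpm1 led with 14240 and Gata5 followed with 11253. By that measure Gata6 with 3332 and Zfpm2 with 1888 both lay below the median over all genes, 3563.

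**Figure D2:**
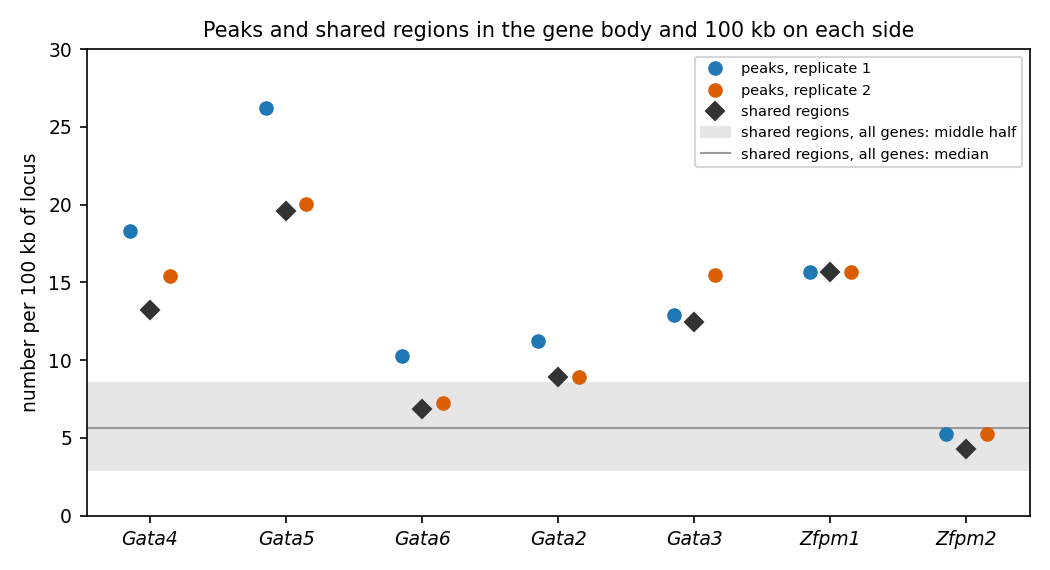
Number of peaks in replicate 1 and replicate 2 and of shared regions per 100 kb of the locus of each member, with a grey band and line for the quartiles (2.95 and 8.52) and median (5.63) of shared regions over all 20807 autosomal protein-coding genes. Gata5 has the highest and Zfpm2 the lowest value among the members in each replicate.

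The median density of Gata4 to Gata6 exceeded that of Gata2 and Gata3 by 2.52 shared regions per 100 kb, and counted in peaks by 6.26 in replicate 1 and 3.21 in replicate 2. The ranges overlapped, since Gata6 had fewer regions per 100 kb than either Gata2 or Gata3. With 50 kb on each side in place of 100 kb the difference was -0.91, so its direction depended on the distance taken. Part of the count belonged to neighbours. In the Gata4 locus 5 regions lay at starts of Ctsb, Fdft1 and Neil2, and in the Gata5 locus 3 lay at starts of Lama5, Rps21 and Cables2. In the Gata3 locus 2 lay at starts of 4930412O13Rik and 9230102O04Rik and not at a start of Gata3, and in the Zfpm1 locus 2 lay at starts of Zc3h18 and Cyba. The loci of Gata6, Gata2 and Zfpm2 had 0 such regions. The strongest regions in the loci of Gata4 and Gata5 were of this kind, at Fdft1 with 41.6 and 37.2 and at Cables2 with 55.7 and 52.3. Without all regions at other genes' starts the difference was 1.33 per 100 kb.

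**Figure D3:**
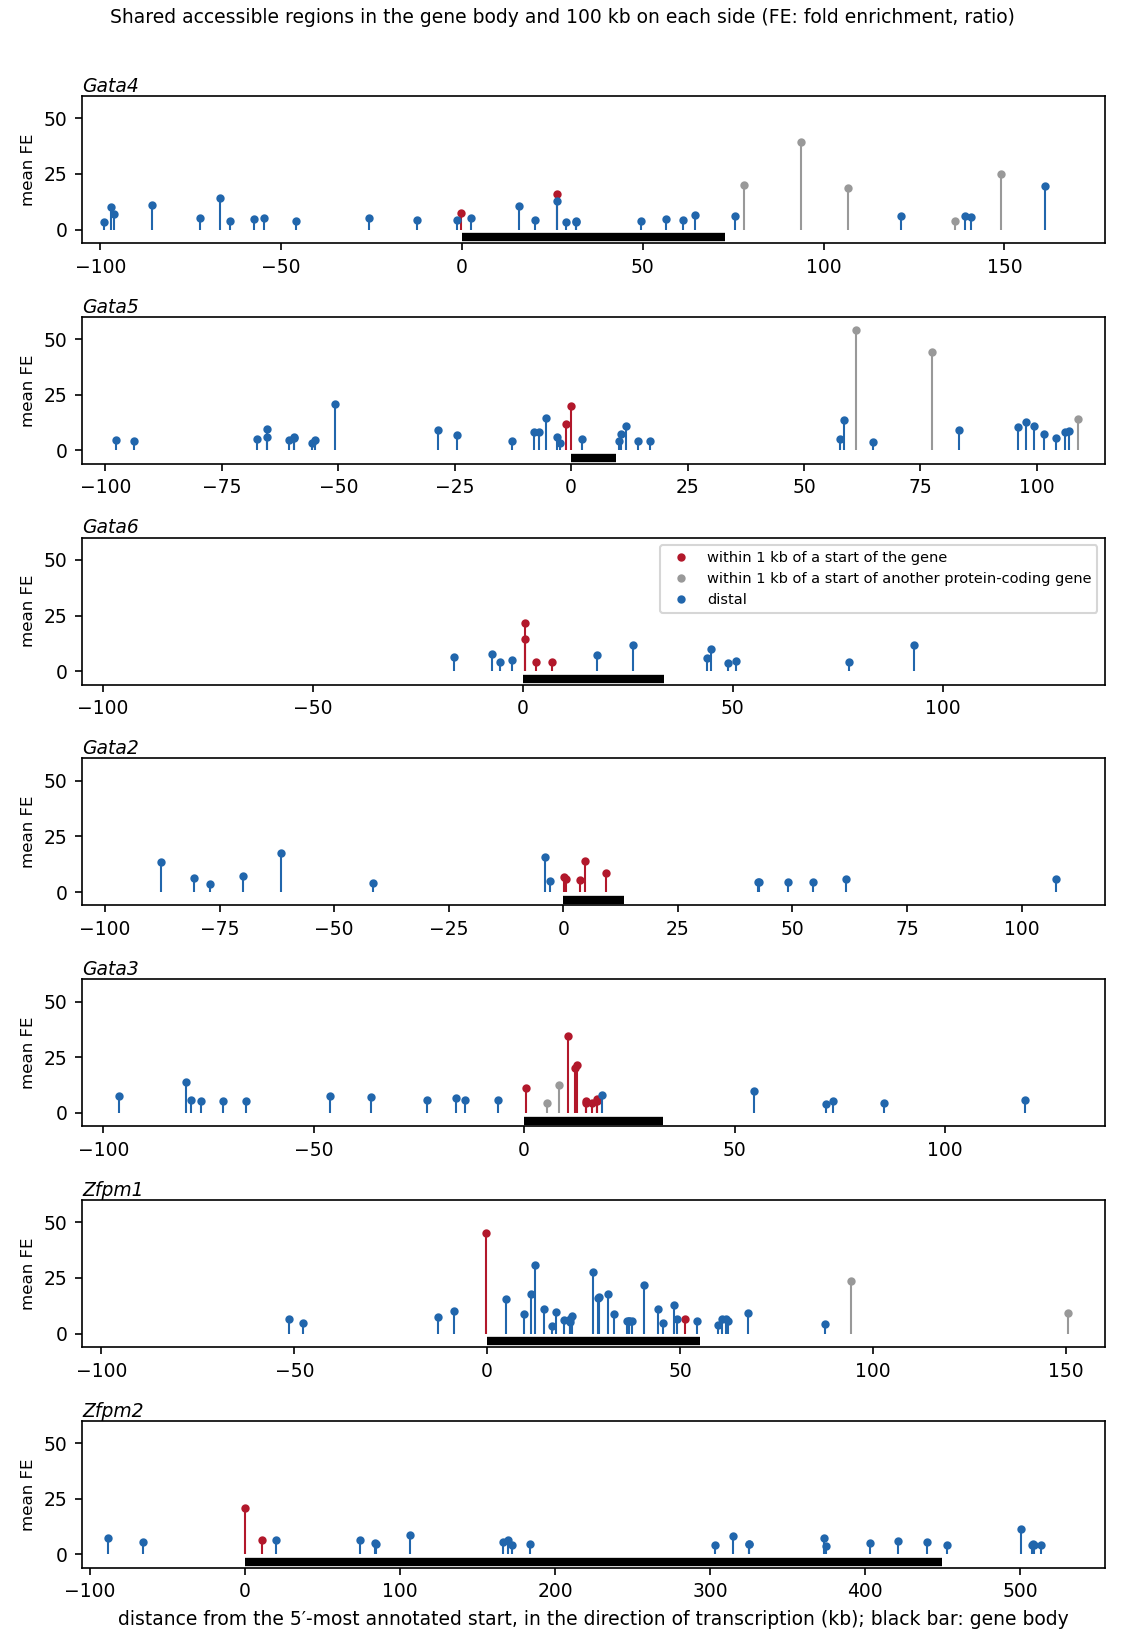
Mean fold enrichment of both replicates (ratio) of each shared region in the 7 loci against the distance of its replicate 1 summit from the 5′-most start in the direction of transcription (kb), with the gene body as a black bar. Red marks regions within 1 kb of a start of the gene, grey those at starts of other protein-coding genes only, and blue distal regions. The Zfpm1 regions crowd into the gene body, and the tallest grey stems are at Cables2 and Rps21 in the Gata5 locus.

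Of the 209 regions, 171 were distal, with a median of the mean fold enrichment of 5.84, close to the 5.74 over all 76461 distal autosomal regions. The number of distal regions above 10 in both replicates was 13 of 77 in the loci of Gata4 to Gata6, 4 of 32 in those of Gata2 and Gata3, and 8 of 62 in those of Zfpm1 and Zfpm2. As shares these were 16.9%, 12.5% and 12.9%, against 12.1% of all distal autosomal regions. By position of the replicate 1 summit, 70 of the 209 regions were in introns of the member, 5 in its coding exons, 6 in its untranslated exons and 2 in noncoding exons. Another 36 were in other protein-coding genes, 18 in other annotated genes and 72 outside genes. Of the 36, 13 were in the Zfpm1 locus, all within Gm20388, and they include the start region of Zfpm1 itself.

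In the Gata4 locus the strongest distal region was chr14:63110194-63110743, outside genes and 161.2 kb downstream of the 5′-most start, beyond Neil2, Fdft1 and Ctsb. It reached 16.8 in replicate 1 (interval 12.9 to 21.6) and 22.6 in replicate 2 (interval 18.2 to 27.8), and 97.4% of distal regions had a lower mean. The highest distal value of the locus depended on the flank, with a mean of 19.7 at 100 kb, 12.8 at 50 kb, 14.1 with the flank stopped at the nearest other protein-coding gene and 26.1 at 200 kb. The second, chr14:63338418-63339131, lay 67.0 kb upstream in the noncoding gene Gm5463, with 14.7 and 13.6. The third by mean was an intron region, chr14:63246898-63248145, whose replicate 1 value of 16.0 belongs to the broad peak with its summit at the inner start, and its replicate 2 value was 9.55. Among regions with both summits inside, the third was chr14:63357000-63357649, 85.6 kb upstream, with 11.1 and 11.3. A region near Gata4 need not act on Gata4, and peak lists do not link regions to genes.

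In the Gata5 locus the strongest distal region was chr2:180385117-180386619, 50.8 kb upstream in the noncoding gene B230312C02Rik. It reached 22.3 in replicate 1 (interval 17.7 to 27.6) and 19.6 in replicate 2 (interval 15.5 to 24.4), about as high as the Gata5 start itself, with intervals that overlap. The second, chr2:180339437-180340386, lay 5.39 kb upstream in Gata5os, with 16.0 and 12.8. The third, chr2:180275862-180276320, was 58.7 kb downstream of the start near Cables2, with 14.9 and 12.1. By position of the replicate 1 summit, only 1 of the 41 regions lay in the short gene body, on a coding exon, and 21 lay upstream and 19 downstream. The start region counted as upstream, though it reaches into the body.

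In the Gata6 locus no start of another protein-coding gene held a region. The strongest distal region was in an intron, chr18:11077808-11078551, with 13.9 in replicate 1 and 10.1 in replicate 2. A region outside genes 93.1 kb downstream of the 5′-most start, chr18:11144894-11145507, had 12.0 and 11.8, and these 2 regions did not differ beyond their replicate ranges. The third, chr18:11096274-11097112, had 12.0 and 8.30. The windows of the first and second held a GATA match, and that of the third held a TEAD match.

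In the Gata2 locus the strongest distal regions were all upstream. The first, chr6:88131965-88132573, lay 61.7 kb away with 19.8 in replicate 1 (interval 15.6 to 24.9) and 15.3 in replicate 2 (interval 11.8 to 19.7), higher in mean than either coding start, with intervals that overlap those at the second start. The second, chr6:88189497-88190465, lay 4.04 kb upstream in the noncoding gene Gm38708, with 16.3 and 15.6 and a GATA match. The third, chr6:88105721-88106663, lay 87.8 kb upstream, with 13.6 and 13.8. These values exceeded the 8.42 and 8.30 of the intron region that held the composite.

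In the Gata3 locus 9 of the 29 regions lay within 1 kb of one of the gene's own starts, and 4 of the 22 that held the summits of both replicates. In 3 of these regions, including the highest, the replicate 2 value was the 34.2 of a single broad peak, while the replicate 1 values of the other 2 were 8.96 and 5.70. The strongest distal region, chr2:9969654-9971052, lay 80.3 kb upstream in Taf3, a gene for a general transcription factor subunit, with 14.7 and 12.8. The second, chr2:9835182-9835653, was 54.6 kb downstream of the 5′-most start, with 10.1 and 9.55 and a GATA match. The third, chr2:9871116-9871710, was an intron region with 8.15 and 8.04. Gata3 thus had the strongest start of the GATA genes. Of its 18 distal regions 1 was above 10 in both replicates, beside 12.1% of all distal autosomal regions.

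In the Zfpm1 locus 27 of the 40 regions had their replicate 1 summit in the gene body, 26 of them in introns. The locus had 14240 bp of open chromatin per 100 kb, more than 98.8% of genes. The strongest distal region of all 7 loci was in an intron, chr8:122293806-122295044, with 30.2 in replicate 1 (interval 24.8 to 36.3) and 31.7 in replicate 2 (interval 26.4 to 37.7), and 99.7% of distal regions were lower. The second, chr8:122308986-122310368, was the region with 5 GATA matches, with 27.2 and 28.4. The third, chr8:122321059-122325538, spanned 4480 bp, with 20.9 and 22.4 and 4 GATA matches. The predicted gene Gm20388 overlaps these introns, so they are not particular to Zfpm1.

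In the Zfpm2 locus 20 of 28 regions had their replicate 1 summit in the long gene body, and 18 of these were in introns. The strongest distal region, chr15:41155007-41155792, was outside genes 500.5 kb downstream of the 5′-most start, with 12.5 and 10.6. It was followed by intron regions at chr15:40761508-40762016, with 9.24 and 8.30, and chr15:40969828-40970201, with 10.1 and 6.28. The strongest distal region of Zfpm1 was above that of Zfpm2 in both replicates, with counting intervals apart in both.

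**Figure D4:**
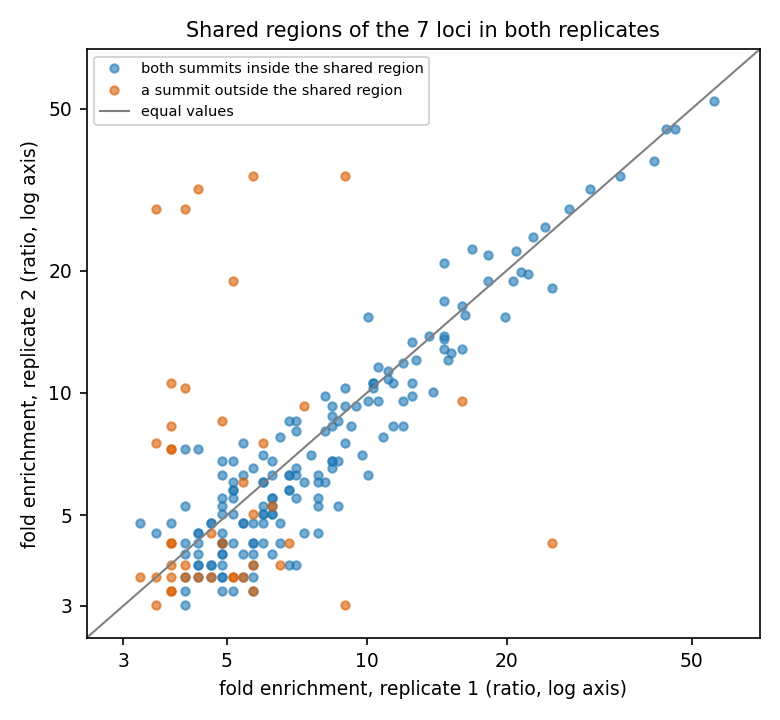
Fold enrichment in replicate 1 against replicate 2 (ratios, log axes) for the 209 shared regions of the 7 loci, with blue for the 166 regions that contain both summits and orange for those with a summit outside. The blue points follow the line of equal values (Spearman rho 0.86), and the points far from it are orange, where a broad peak carries its value into a region beside its summit.

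Over all member regions the fold enrichments of both replicates had a Spearman rho of 0.68, and over the 166 regions with both summits inside it was 0.86, beside 0.87 over all such autosomal regions. These are descriptions across regions, which share libraries and are not independent. The 58 replicate 1 peaks without a partner in replicate 2 reached at most 6.25, and the 38 replicate 2 peaks without a partner in replicate 1 reached at most 6.03, so every higher peak in the 7 loci overlapped a peak of the other replicate.

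A GATA match was found within 100 bp of the replicate 1 summit for 70 of the 209 member regions, or 33.5%, against 37.2% of all autosomal shared regions. For 25 member regions this summit lay outside the region, and regions under a single broad peak share it. With each summit counted once, 68 of 199 windows held a match, or 34.2%, against 37.4% of all such windows. Among distal regions a match was found for 64 of 171, or 37.4%, against 42.7%. By gene, the share of distal regions with a match was 27.6% for Gata4, 30.6% for Gata5, 41.7% for Gata6, 35.7% for Gata2, 44.4% for Gata3, 41.7% for Zfpm1 and 46.2% for Zfpm2. Around the replicate 2 summit the share of all member regions was 37.8%, against 37.2%, so the direction of the difference from the background depended on the summit taken. At least 3 matches were found in 3 member regions, or 1.44%, against 1.99% of all, and all 3 were in Zfpm1 introns, with 5, 4 and 4 matches.

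Motifs of 3 other cardiac factor families were counted in the same windows, and their differences from the shares over all regions were not tested. The T-box motif GGTGTGA was found in 2 regions, or 0.957%, against 3.17% of all autosomal shared regions, and 1 of the 2 was at the 5′-most Gata2 start. The NKX2 motif TNAAGTG was found in 16, or 7.66%, against 11.6%, with 9.68% in the loci of Gata4 to Gata6, 8.33% in those of Gata2 and Gata3, and 4.41% in those of Zfpm1 and Zfpm2. The TEAD motif GGAATG was found in 25, or 12.0%, against 14.7%. Each was searched on both strands of the window around the replicate 1 summit alone and not around the replicate 2 summit, and a match or its absence in this window says nothing of binding.

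Each listed gene for a protein that works with GATA factors, and each listed cardiac GATA target, had at least 1 open start. The counts were 10 of 10 cardiac partners, 8 of 8 genes of the haematopoietic GATA complex, 12 of 12 NuRD subunits and 10 of 10 cardiac target genes. Among all genes the share was 68.8%. Further starts of the same gene could be closed, since Nkx2-5 had 1 of 2 starts open and Hdac1 had 2 of 7. Among cardiac partners the values ran from a mean of 5.10 for Tbx5, a T-box factor of atria and left ventricle, to 39.7 for Srf, with a median of 23.3. Nkx2-5, the homeobox factor of heart muscle, had 12.0 and 9.30, and Hand2, a bHLH factor of the right ventricle, had 25.0 and 22.1. In the haematopoietic complex, Tal1, the bHLH factor that binds the E-box of composites, had 23.4 and 24.4, and Lmo2, which bridges it to GATA proteins, had 15.5 and 21.1. NuRD subunits, which FOG proteins recruit, had the highest median of the 4 lists, 34.8, and ran from 6.45 for Chd3 to 51.2 for Gatad2a. Cardiac targets had the lowest median, 17.3, and ran from 11.1 for Corin to 24.0 for Actc1. An open start does not measure transcription, and the lists were not tested against other genes.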

How the data were processed

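ATAC-seq was made from 2 replicates of pooled E11.5 wildtype hearts. Per the study's methods and processing notes, the authors trimmed single-end reads with Trim Galore 0.6.6, mapped them to GRCm38/mm10 with Bowtie2 2.4.2, removed duplicates and poorly mapped reads with SAMtools 1.12 and called peaks in each replicate with MACS2 without local background. Removal of poorly mapped reads leaves repeats underrepresented. The deposited lists give fold enrichment as a ratio, −log10 p and −log10 q at the summit, and a score that is −log10 q scaled to a whole number. Read totals are not part of the lists, so depth is known only through the recovered background.

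Shared regions were made with bedtools 2.31.1 and merged where they touch, and each carries the highest overlapping peak of each replicate. Starts are all GENCODE M21 transcript starts, and sequence is the GRCm38 reference. All 7 members and the 3 highest distal regions of each locus are named. Every start is counted, but some starts of Gata3 and Gata6 are not named by position. Sequences with more than 30 untranslated bases and those of Gata6 are left out. The members and gene lists were chosen with earlier results of these data known. With a single group no test was made, and values are given per replicate. The overlap and motif code was tested on simulated data. Tables were handled with pandas 2.3.3, intervals with SciPy 1.17.1, and plots with Matplotlib 3.10.9 under Python 3.11.15.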

Additional observations from a re-analysis of the deposited data

How the results depend on the processing

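The count of 7 members with an open start held under all 9 alternatives. The number of shared regions in the 7 loci was 209, between 230 and 257 with a replicate left out, and 90 with q of at most 1e-10. The difference in shared regions per 100 kb, Gata4 to Gata6 minus Gata2 and Gata3, was 2.52, 3.21 without replicate 1 and 6.26 without replicate 2, 1.26 with p of at most 0.00001, 0.89 with q of at most 1e-10, 1.42 with a reciprocal overlap of 50%, 1.33 without regions at other genes' starts, 1244 in base pairs per 100 kb (3068 in replicate 1 alone and 1554 in replicate 2 alone), and reversed to -0.91 with a flank of 50 kb. The log2 difference at starts was -0.20, between -0.23 and -0.19 with a replicate left out, and -0.57 with a reciprocal overlap of 50%, under which the highest region at the Gata4 starts was lost and its value was 7.60. The share of regions with a GATA match was 33.5%. It was 34.4% with q of at most 1e-10, 36.7% with the reciprocal overlap, 36.7% with both summits inside (37.6% of all such regions), 36.5% with a flank of 50 kb, and 34.7% without regions at other genes' starts. With a replicate left out it was between 35.8% and 37.0%. With 50 bp on each side of the summit it was 22.5% (22.8% of all regions), with 150 bp 43.1% (46.7%), and around the replicate 2 summit 37.8% (37.2%). Of the values of single members, 48 of 49 at starts and 48 of 56 for the highest distal region stayed within 1 SD of the replicates, not counting each replicate alone, and 57 of 70 region counts stayed within 1.5 times. The 48 start values equalled the main value. Most alternatives leave the highest start region in place, so this count says little of stability. Counting each replicate 1 summit once, an alternative chosen after the data were seen, gave a GATA share of 34.2%. No paired analysis was possible because there is a single group. What caused these shifts was not tested.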

Other observations

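Shared regions were counted by position of the replicate 1 summit, so the start regions of Gata5 and Zfpm1 counted as upstream though both reach into the body. Upstream of the 5′-most start, Gata5 had 21 shared regions, Gata4 14, Gata3 12, Gata2 8, Zfpm1 5, Gata6 4 and Zfpm2 2. Downstream of the gene body, Gata5 had 19, Gata4 10, Zfpm1 8, Gata6 6, Gata2 6, Zfpm2 6 and Gata3 5. Within the gene body, Zfpm1 had 27, Zfpm2 20, Gata4 12, Gata3 12, Gata6 6, Gata2 5 and Gata5 1. These are counts and not densities, and the order partly follows body length. The bodies measured 449.6 kb for Zfpm2, 72.8 kb for Gata4, 55.1 kb for Zfpm1 and 33.6 kb for Gata6. Those of Gata3, Gata2 and Gata5 measured 33.0, 13.1 and 9.57 kb.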
